A study of Mus musculus with 4 samples.

Results

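The Ly49 receptors are the lectin-like receptors of mouse NK cells that are encoded by the Klra genes, and 8 of them, Klra1 and Klra3 to Klra9, were followed here by name in a table of 35275 genes. All 8 were in the table, and all 8 passed the filter, an average of 1 RPKM or more (read counts divided by transcript length and library size), as did 11625 genes in all. The values came from RNA sequencing of mouse double-negative regulatory T cells, which carry an αβ T cell receptor and neither CD4 nor CD8. Of the 4 libraries, 2 were from cells of OX40-knockout C57BL/6 mice and 2 from cells of wild-type C57BL/6 mice. In every library the cells started as naive CD4 T cells, were converted in culture, and were sorted as CD3 and TCRαβ positive cells without NK markers, CD4 or CD8. The labels give no age, do not say which part of the OX40 gene was removed, and do not tell whether the 2 libraries of a genotype are separate animals or repeats of 1 culture, so the p-values rest on a spread that may be technical.

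Ly49 receptors sit on the cell surface as pairs of like chains and read classical MHC class I molecules. Most of them inhibit the cell: a tyrosine motif in the tail inside the cell, the ITIM, recruits the phosphatase SHP-1, the product of Ptpn6. A few lack that motif and activate the cell through the adaptor DAP12, the product of Tyrobp. Each NK cell switches on its own subset of the family, and some T cells of mice carry members too. Of the 8 genes, Klra1 (Ly49A), Klra3 (Ly49C), Klra5 (Ly49E), Klra6 (Ly49F), Klra7 (Ly49G) and Klra9 (Ly49I) encode inhibitory receptors, and Klra4 (Ly49D) and Klra8 (Ly49H) activating ones.

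The start of each coding sequence shows how alike the members are and where the 2 kinds part. The first 60 bases after and including the start codon are given from GENCODE transcripts (chromosome 6, minus strand), with the codon at the place of the ITIM tyrosine, the eighth of the chain, in capitals. It is a tyrosine codon, TAT or TAC, in the 6 inhibitory members and the phenylalanine codon TTC in Klra8 and Klra4.
Klra7: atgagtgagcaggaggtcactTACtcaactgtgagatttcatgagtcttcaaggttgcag
Klra5: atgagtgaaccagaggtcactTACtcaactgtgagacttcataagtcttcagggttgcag
Klra1: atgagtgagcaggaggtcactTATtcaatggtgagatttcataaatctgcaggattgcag
Klra6: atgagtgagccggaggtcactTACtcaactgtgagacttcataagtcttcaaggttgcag
Klra9: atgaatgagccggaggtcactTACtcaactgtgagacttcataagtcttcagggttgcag
Klra3: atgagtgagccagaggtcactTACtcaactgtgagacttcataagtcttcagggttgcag
Klra8: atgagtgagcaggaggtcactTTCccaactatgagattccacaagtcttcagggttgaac
Klra4: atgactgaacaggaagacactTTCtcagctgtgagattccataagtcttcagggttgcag

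Over whole coding sequences, aligned pairwise, identity lay between 77.9% for Klra7 with Klra8 and 95.9% for Klra3 with Klra9. Reads short enough to fall inside a shared stretch cannot be assigned to 1 gene, and neither the read length nor the treatment of such reads is given in the sources used here. Cut into windows of 50 bases, 33.1% of the Klra8 transcript, 32.4% of Klra9 and 21.5% of Klra3 were found letter for letter in a transcript of another gene. For Klra7 the share was 14.7%, all of it also found in the pseudogene Klra13-ps. For Klra4, Klra1, Klra6 and Klra5 it was 4.7%, 3.2%, 2.6% and 0.7%. With windows of 36 bases the share was 51.3% for Klra9, 47.8% for Klra8, 37.7% for Klra3 and 23.7% for Klra7, and 12.3%, 6.0%, 9.4% and 7.5% for Klra4, Klra1, Klra6 and Klra5. Values of Klra3, Klra8 and Klra9 are the most uncertain on this count at both lengths, and by how much depends on the read length.

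**Figure D1:**
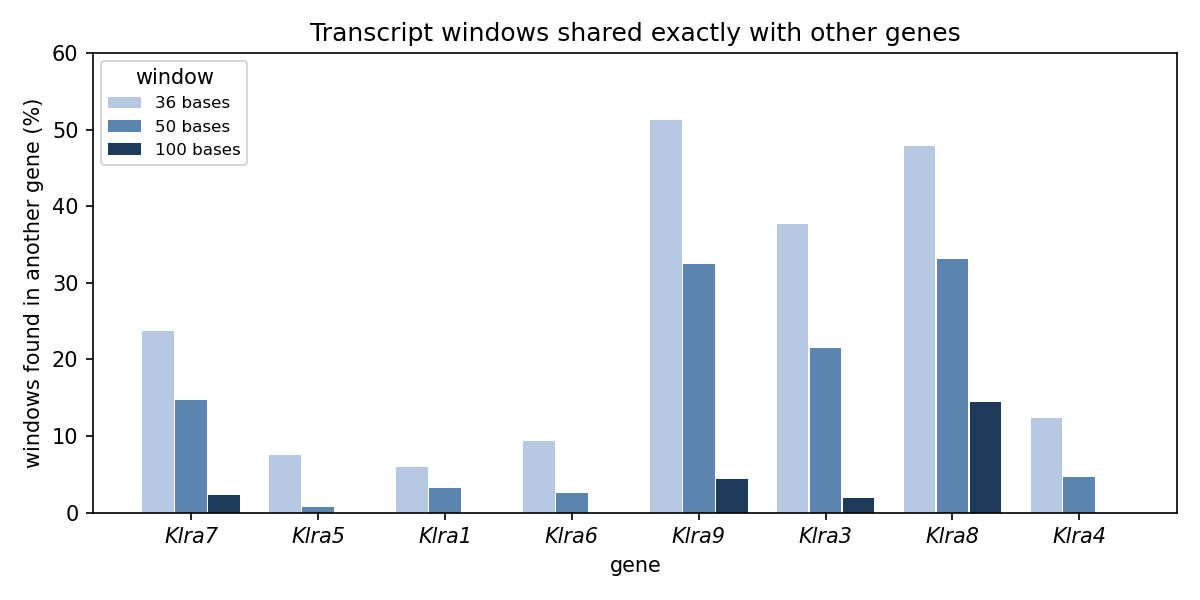
Share of windows of each Ly49 transcript, in percent on the vertical axis, that occur exactly in a transcript of another gene, for windows of 36, 50 and 100 bases. At 50 bases Klra8 and Klra9 stand at 33.1% and 32.4%, and Klra5 at 0.7%.

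The libraries differed from one another within each genotype as well as between them. On the first principal component (71% of the variance) OX40-knockout 1 scored 34.2 and the other 3 libraries between -18.1 and -0.1. Of the 11625 genes, 58 to 578 differed by 2-fold or more in RPKM + 1, the fewest between OX40-knockout 2 and wild-type 2 and the most between the OX40-knockout libraries. Every pair differed by more than sampling noise, with chi-square values per degree of freedom from 8.68 to 75.5. These values rest on 1767 to 1838 genes per pair, those with 1 transcript whose reads could be recovered and were not too few. Library totals, read off the values, were 22220888 and 22571186 reads for OX40-knockout 1 and 2 and 23215528 and 24395743 reads for wild-type 1 and 2. Tnfrsf4, the gene of OX40, was at 12.1 and 9.38 RPKM in OX40-knockout libraries and at 18.2 and 12.3 RPKM in wild-type libraries, so its transcript was read under both labels. With the removed part of the gene not stated, this level does not check the labels. It did not pass the test between genotypes (log2 change -0.46, SE 0.23, limma adjusted p = 0.975). In the same libraries Cd3e, a chain of the T cell receptor complex, lay between 248 and 332 RPKM, and Cd8a between 9.03 and 16.6 RPKM. Cd4 was at 10.1 and 2.06 RPKM in OX40-knockout libraries and at 0.82 and 1.97 RPKM in wild-type libraries.

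The 8 Ly49 genes fell into a high tier and a low tier per length. Klra7 was the highest in every library, at 66.9 and 116 RPKM in OX40-knockout libraries and 104 and 145 RPKM in wild-type libraries. Its lowest value lay just above the highest value of Klra5, which was at 31.8 and 66.1 RPKM in the OX40-knockout and 39.2 and 45.6 RPKM in wild-type libraries. Klra5 encodes Ly49E, an unusual member for which the protease urokinase has been described as a ligand. Klra1, encoding Ly49A, followed at 15.9 and 40.3 RPKM in the OX40-knockout and 24.9 and 41.5 RPKM in wild-type libraries. Klra5 was above Klra1 in each of the 4 libraries, although their ranges overlap. Klra7, Klra5 and Klra1 together made up between 81.2% and 92.3% of the summed RPKM of the 8 genes.

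The other 5 members lay lower, between 0.253 and 13 RPKM, and their order changed from library to library. Klra6, encoding Ly49F, was at 3.99 and 8.58 RPKM in OX40-knockout libraries and 7.95 and 13 RPKM in wild-type libraries. Klra3, encoding Ly49C, a receptor for class I of the b haplotype, was at 2.75 and 8.53 RPKM in the OX40-knockout and 3.8 and 9 RPKM in wild-type libraries. Klra9, encoding its near relative Ly49I, was at 2.17 and 12.7 RPKM in the OX40-knockout and 1.82 and 11.5 RPKM in wild-type libraries. Klra9 was thus above Klra3 in OX40-knockout 2 and wild-type 2 and below it in OX40-knockout 1 and wild-type 1. Means over the 4 libraries ran from 8.39 RPKM for Klra6 down to 4.09 RPKM for Klra4, and no 2 neighbours in that order had ranges that were apart.

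The activating pair was close to the floor in the replicate 1 libraries. Klra8, whose receptor Ly49H binds a protein of mouse cytomegalovirus, was at 0.382 and 8.8 RPKM in OX40-knockout 1 and 2 and at 0.475 and 11.4 RPKM in wild-type 1 and 2. The values stood for 10 and 234 reads in the OX40-knockout and 13 and 328 reads in the wild-type libraries. Klra4, encoding Ly49D, was at 0.253 and 7.01 RPKM in OX40-knockout 1 and 2 and at 0.484 and 8.63 RPKM in wild-type 1 and 2, from 7, 197, 14 and 262 reads. For both genes the genotypes overlapped almost completely, while the libraries split by replicate number. With exact 95% Poisson intervals, which cover counting error only, the lowest bound of Klra4 in the replicate 2 libraries was 6.07 RPKM (OX40-knockout 2), and its highest bound in the replicate 1 libraries was 0.813 RPKM (wild-type 1). For Klra8 these bounds were 7.71 RPKM in OX40-knockout 2 and 0.813 RPKM in wild-type 1. Klra4 and Klra8 together held 0.511% and 5.89% of the summed Ly49 RPKM in OX40-knockout 1 and 2, and 0.525% and 7.02% in wild-type 1 and 2.

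**Figure D2:**
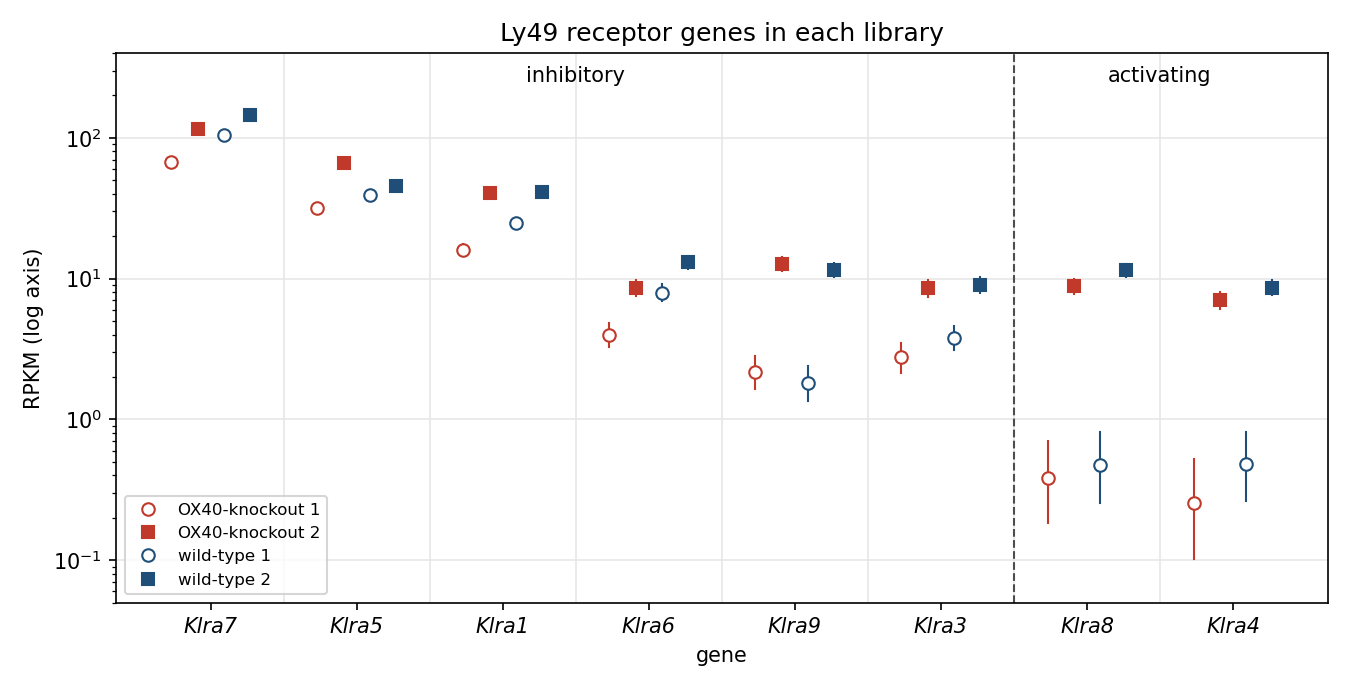
RPKM of the 8 Ly49 genes by library (log axis), with vertical lines for exact 95% Poisson intervals of the reads and a dashed line between inhibitory and activating members. Klra7 lies between 66.9 and 145 RPKM in all 4 libraries, while Klra8 and Klra4 lie between 7.01 and 11.4 RPKM in OX40-knockout 2 and wild-type 2 and between 0.253 and 0.484 RPKM in OX40-knockout 1 and wild-type 1.

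The comparison of OX40-knockout with wild-type asked whether the libraries of the 2 genotype labels differ in the level of these receptors. No Ly49 gene passed. With limma on log2(RPKM + 1), adjusted by the Benjamini-Hochberg method over 11625 genes, 0 of the 8 genes were called at an adjusted p under 0.05, and 0% of all genes were. At an unadjusted p under 0.05 there were 0 of the 8 and 162 (1.39%) of all genes. The largest difference was that of Klra6, at 6.28 ± 3.24 RPKM in the OX40-knockout and 10.5 ± 3.6 RPKM in wild-type libraries (mean ± SD, n = 2 each; log2 change -0.70, SE 0.39, limma adjusted p = 0.975). Klra7 was at 91.6 ± 34.9 RPKM in the OX40-knockout and 124 ± 28.6 RPKM in wild-type libraries (n = 2 each; log2 change -0.47, SE 0.31, limma adjusted p = 0.975).

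For the other 6 genes the log2 change lay between -0.33 for Klra1 and 0.15 for Klra9, with standard errors from 0.35 to 1.36 and limma adjusted p from 0.975 to 0.988. Standard errors above 1 belonged to Klra4 and Klra8. Of the 8 genes, 6 were lower and 2 higher on average in the OX40-knockout libraries, beside 6574 lower and 5051 higher of all 11625 tested. The median log2 change of the 8 was -0.24, beside -0.03 over all genes tested. The genotype groups overlapped for each of the 8, where 17.8% of all genes tested had both OX40-knockout libraries below both wild-type libraries and 8.66% had them above. Klra6 and Klra7 were lower in the OX40-knockout library of each replicate number. Klra6 was at 0.502 and 0.658 times the wild-type level and Klra7 at 0.642 and 0.803 times. The same held for Klra1 (0.64 and 0.97 times), Klra3 (0.725 and 0.948), Klra4 (0.522 and 0.813) and Klra8 (0.804 and 0.771). Klra9 was higher at both numbers, at 1.19 and 1.1 times. Several of these ratios lay within counting error. The exact 95% Poisson intervals of the genotypes overlapped at both numbers for Klra3, Klra4 and Klra9. They also overlapped in replicate 1 for Klra8, from 10 and 13 reads, and in replicate 2 for Klra1. In replicate 1 Klra4 stood on 7 reads in the OX40-knockout and 14 in the wild-type. The labels do not pair libraries by number, and the share of all genes lower at both was not computed. Klra5 was at 0.812 times the wild-type level in replicate 1 and at 1.45 times in replicate 2.

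The direction of these averages changed with the library left out. Without OX40-knockout 1, 6 of the 8 genes were higher in the knockout, with a median log2 change of 0.55, and without wild-type 2 also 6, with a median of 0.27. Without OX40-knockout 2 all 8 were lower, with a median of -0.94, and without wild-type 1 there were 7 lower, with a median of -0.83. Klra6 and Klra7 were lower in the knockout in all 4 of these fits, at -0.23 and -0.08 without OX40-knockout 1. No Ly49 gene passed in any of the 4, with a lowest limma adjusted p of 0.0906 and the lone library assumed to vary like the others. OX40-knockout 1 held the lowest value of the 4 libraries for 7 of the 8 genes, Klra9 being the exception. The Ly49 transcripts are low in GC content, at 37.5% to 40.6%, in the lowest of 5 equal classes of the tested genes by GC content. In that class OX40-knockout 1 stood 0.18 below the mean of the libraries on the log2 scale (median), against 0.05 to 0.07 above it in the other libraries. With the libraries centred within classes of GC content, OX40-knockout 1 was lowest for 4 of the 8 genes and the median log2 change was -0.08, with 6 genes still lower and 2 higher.

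The replicate number split the Ly49 genes where the genotype did not. All 8 genes were higher in both replicate 2 libraries than in both replicate 1 libraries, where 24.0% of the 11625 genes were. The number was 8 as well with median-of-ratios factors, quantile normalization and the GC correction. In each genotype 4 genes, Klra3, Klra4, Klra8 and Klra9, were at least 2-fold higher in replicate 2, where 1.06% of all genes were. The labels do not say what the number stands for, so this is a description of 4 libraries, with no test. Klra3, Klra8 and Klra9 had the largest shares of windows found in other genes at 36 and 50 bases, and may not be separate observations. The size of the split differed widely among members. Klra4 was 27.7-fold higher in replicate 2 in the OX40-knockout and 17.8-fold higher in the wild-type, and Klra8 23-fold and 24-fold. Klra9 was 5.87-fold higher in replicate 2 in the OX40-knockout and 6.35-fold higher in the wild-type.

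The other inhibitory members moved less. Klra3 was 3.1-fold higher in replicate 2 in the OX40-knockout and 2.37-fold higher in the wild-type, Klra1 2.53-fold and 1.67-fold, Klra6 2.15-fold and 1.64-fold, and Klra7 1.74-fold and 1.39-fold. Klra5 was 2.08-fold higher in the OX40-knockout and 1.16-fold in the wild-type. The smallest ratio was thus that of Klra7 in the OX40-knockout and that of Klra5 in the wild-type. Of the windows of Klra4, 95.3% at 50 bases and 87.7% at 36 bases have no exact match in an annotated transcript of another gene. Near matches were not searched, and the part of shared or near-shared stretches in the splits was not tested. In bulk RNA, more cells that carry a receptor and more of its RNA per cell cannot be told apart.

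**Figure D3:**
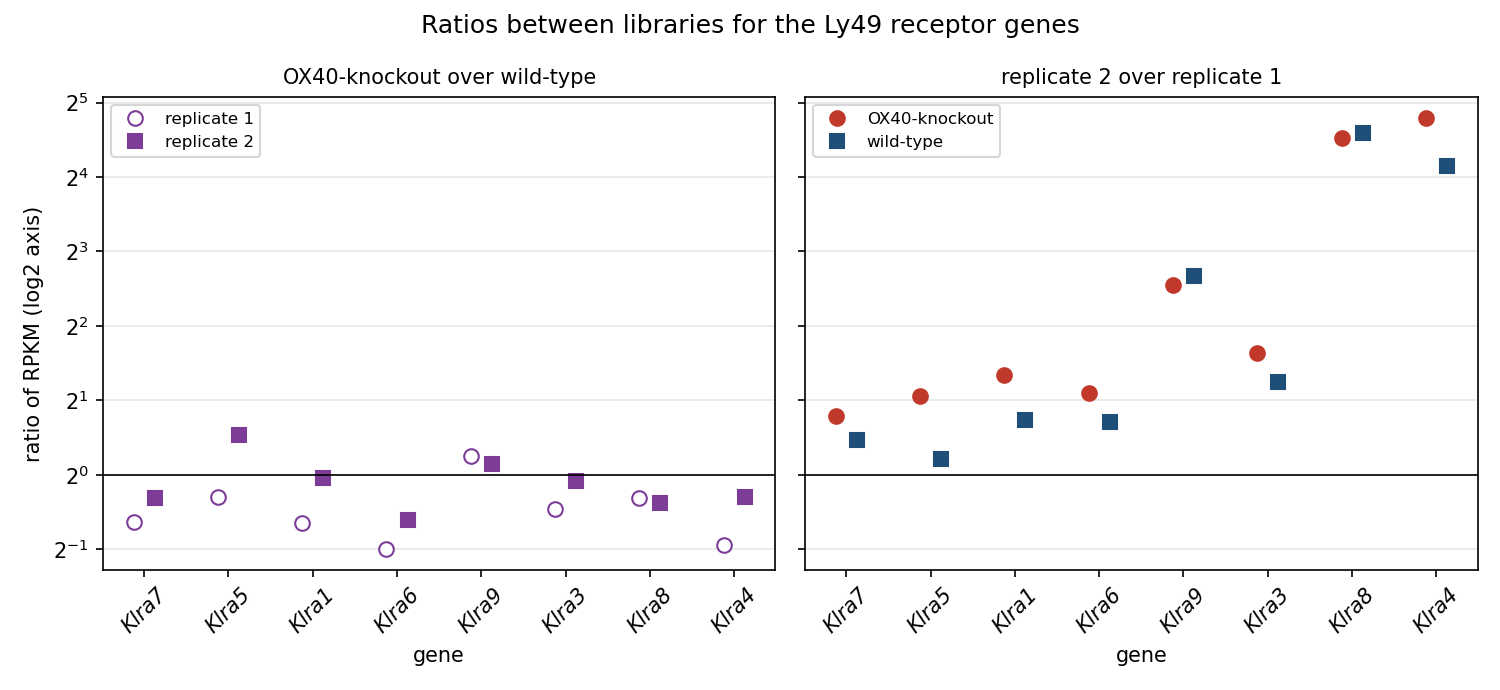
Ratios of RPKM for the 8 Ly49 genes on a log2 axis, OX40-knockout over wild-type within each replicate number on the left and replicate 2 over replicate 1 within each genotype on the right. Ratios between genotypes lie from 0.502 to 1.45, and ratios between replicate numbers from 1.16 to 27.7, with every replicate 2 value above its replicate 1 value.

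Of 5 further Ly49 loci, Klra14-ps, Klra13-ps and Klra10 were higher in both replicate 2 libraries, and Klra2 was not. Klra11-ps was not analysed here. The pseudogene Klra14-ps, which lies next to Klra8 in the order of the chromosome, held 73 and 91 reads in OX40-knockout 2 and wild-type 2, against 2 and 2 reads in OX40-knockout 1 and wild-type 1. It shares 20.4% of the 50-base windows of Klra8, so reads of one may have been given to the other. Klra13-ps was at 14.1 and 18.8 RPKM in OX40-knockout 2 and wild-type 2, against 3 and 3.03 RPKM in OX40-knockout 1 and wild-type 1. Klra10, encoding Ly49J, was below the filter, with 22 and 35 reads in OX40-knockout 2 and wild-type 2, against 0 and 3 reads in OX40-knockout 1 and wild-type 1. Klra2, which lies apart from the other loci and encodes Ly49B, did not follow the number, at 0.706 and 2.57 RPKM in the OX40-knockout and 2.32 and 2.26 RPKM in wild-type libraries. Klra17, encoding Ly49Q of myeloid and plasmacytoid cells, held at most 3 reads in any library. Of these 5 loci 3 were tested between genotypes, and 0 were called.

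The promoters of Klra4 and Klra8 are shown with that of Klra7, since the first pair was near the floor in replicate 1 and the last was high in every library. Each runs from 250 bases before the annotated start to 50 after it, from RefSeq on GRCm38.p6, minus strand: chr6:130067222-130067521 for Klra4, chr6:130129849-130130148 for Klra8 and chr6:130233273-130233572 for Klra7. The submitters' processing notes name mm8, so these coordinates are not those of the deposited values. Capitals mark the longest run shared by all 3, of 14 bases, which begins 16 to 26 bases before the start.
Klra4: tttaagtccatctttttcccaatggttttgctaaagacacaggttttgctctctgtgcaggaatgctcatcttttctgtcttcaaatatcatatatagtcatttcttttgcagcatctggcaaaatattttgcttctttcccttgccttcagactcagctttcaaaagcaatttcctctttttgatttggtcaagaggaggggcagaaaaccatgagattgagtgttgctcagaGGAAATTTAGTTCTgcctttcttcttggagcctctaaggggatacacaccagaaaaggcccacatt
Klra8: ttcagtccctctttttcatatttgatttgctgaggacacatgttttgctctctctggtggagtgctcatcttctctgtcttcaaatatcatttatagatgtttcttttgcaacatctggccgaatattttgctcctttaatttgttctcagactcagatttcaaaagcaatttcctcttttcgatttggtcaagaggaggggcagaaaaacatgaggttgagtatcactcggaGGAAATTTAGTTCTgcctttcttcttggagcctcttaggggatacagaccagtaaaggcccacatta
Klra7: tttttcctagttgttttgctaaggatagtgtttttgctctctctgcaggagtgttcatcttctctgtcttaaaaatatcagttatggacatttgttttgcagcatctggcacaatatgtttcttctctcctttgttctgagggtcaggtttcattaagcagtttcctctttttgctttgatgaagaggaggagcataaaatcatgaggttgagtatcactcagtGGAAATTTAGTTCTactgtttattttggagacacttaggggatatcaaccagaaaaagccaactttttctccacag

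Klra4 and Klra8 were alike at 86.6% of 299 aligned bases, Klra4 and Klra7 at 79.9% of 288 and Klra8 and Klra7 at 80.2% of 288. The run of 14 bases occurred, on either strand, in 5 of the 32851 promoter windows of the table, all of them of the Ly49 genes Klra4, Klra6, Klra7 and Klra8. The core TCAAAG of TCF and LEF factors, searched on both strands, was found in windows of Klra6 and Klra7 and in 16% of all windows. TGTGGT, the RUNX core, and GGTGTGA, a T-box core, were found in the Klra1 window alone among the members, and in 16.8% and 3.98% of all windows. The Klra1 window aligned with no other member's window over more than 18 bases, so like stretches are not compared there. None of the 3 motifs was in the windows of Klra4 and Klra8.

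Of the signalling partners, the adaptor of the activating receptors followed the same libraries. Tyrobp, encoding DAP12, was at 259.9 and 188.6 RPKM in OX40-knockout 2 and wild-type 2, against 27.3 and 60.3 RPKM in OX40-knockout 1 and wild-type 1. It was thus 9.52-fold higher in replicate 2 in the OX40-knockout and 3.13-fold higher in the wild-type. Hcst, encoding the related adaptor DAP10, was at 51.6 and 85.7 RPKM in the OX40-knockout and 78 and 84.8 RPKM in wild-type libraries. Ptpn6, encoding the phosphatase SHP-1 that inhibitory members recruit, varied less, at 81.6 and 61.8 RPKM in the OX40-knockout and 64.7 and 69.8 RPKM in wild-type libraries. Syk, a kinase that DAP12 engages, was at 1.25 and 2.49 RPKM in the OX40-knockout and 1.51 and 3.72 RPKM in wild-type libraries, far below its relative Zap70, which was at 191 RPKM or more in each. Of the 9 partners 0 passed between genotypes, with 6 higher and 3 lower on average. In replicate 2, 4 were above and 2 below both replicate 1 libraries, beside 24.0% and 18.7% of all genes.

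Of 6 listed genes of class I and its loading with peptide, 0 were above both replicate 1 libraries in replicate 2 and 2 were below both, beside 24.0% and 18.7% of all genes. The 2 were Tap1 and Tap2, the subunits of the peptide transporter. Tap1 was at 131.7 and 167.3 RPKM in OX40-knockout 2 and wild-type 2, against 219.9 and 169.6 RPKM in OX40-knockout 1 and wild-type 1, so that the wild-type libraries were nearly level. H2-K1 was at 2640 and 1823 RPKM in OX40-knockout libraries and 2260 and 2294 RPKM in wild-type libraries, and H2-D1 at 2844 and 1847 RPKM in the OX40-knockout and 2217 and 2234 RPKM in wild-type libraries. B2m, the light chain of class I, was at 1842 and 1768 RPKM in the OX40-knockout and 2069 and 1945 RPKM in wild-type libraries. B2m was the 1 gene of the 6 with both OX40-knockout libraries below both wild-type libraries, beside 17.8% of all genes tested. It did not pass (log2 change -0.15, SE 0.13, limma adjusted p = 0.975). Of the 6 genes of this list 0 were called, with 4 higher and 2 lower and a median log2 change of 0.01.

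Transcription factors tied to Ly49 expression were mixed. Eomes, a T-box factor of NK cells and memory T cells, was at 75.5 and 133 RPKM in the OX40-knockout and 114 and 149.6 RPKM in wild-type libraries. Tcf7, encoding TCF1, on which several Ly49 genes depend in NK cells, was at 10.1 and 17.1 RPKM in the OX40-knockout and 14.5 and 19.6 RPKM in wild-type libraries. Both were higher in replicate 2, though by at most 1.76-fold. Gata3, the lineage factor of type 2 helper cells, was at 134.8 and 53.8 RPKM in OX40-knockout libraries and 66.6 and 54.5 RPKM in wild-type libraries. Of the 13 factors tested 0 were called, with 6 higher and 7 lower, and Ikzf2 was the 1 gene with an unadjusted limma p under 0.05 (log2 change -0.30, SE 0.11, adjusted p = 0.975). In replicate 2, 5 of the 13 were above both replicate 1 libraries, beside 24.0% of all genes, and 0 were 2-fold higher in each genotype, beside 1.06%.

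Other lectin-like receptors split much as the Ly49 genes did. Of 16 tested, 14 were higher in both replicate 2 libraries, beside 24.0% of all genes, and 1, Cd69, was lower in both. At least 2-fold higher in each genotype were 5, beside 1.06% of all genes. Klrg1, an inhibitory receptor of mature effector cells, was at 23.7 and 18 RPKM in OX40-knockout 2 and wild-type 2, against 1.78 and 2.19 RPKM in OX40-knockout 1 and wild-type 1. Klrb1b was at 36.8 and 21.6 RPKM in OX40-knockout 2 and wild-type 2, against 1.69 and 1.62 RPKM in OX40-knockout 1 and wild-type 1. Between genotypes 0 of the 16 were called, with 4 higher and 12 lower and a median of -0.15.

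Most tested markers of NK cells were higher in replicate 2, as the Ly49 genes were, although the cells had been sorted against NK markers. Of 10 listed symbols of NK markers 9 were in the table, Cd244a among them and Cd244 not, and none of the 9 was at 0 in all libraries. Higher in both replicate 2 libraries were 7 of the 8 tested, beside 24.0% of all genes. Only 1, Ncr1, was at least 2-fold higher in each genotype, beside 1.06% of all genes. Itga2 did not split, at 2.82 and 2.34 RPKM in the OX40-knockout and 2.43 and 2.44 RPKM in wild-type libraries. Ncam1 was below the filter, at no more than 0.258 RPKM. The summed level of the list was 928.5 and 846.5 RPKM in OX40-knockout 2 and wild-type 2, against 320.7 and 570.6 RPKM in OX40-knockout 1 and wild-type 1. Fcer1g was its largest term in every library. It was at 486 and 399.1 RPKM in OX40-knockout 2 and wild-type 2, against 146.2 and 259 RPKM in OX40-knockout 1 and wild-type 1. Klre1 and Klrb1c are on this list and on the list of lectin-like receptors, and Eomes on that of transcription factors. Ncr1, encoding the NK receptor NKp46, was at 7.49 and 7.93 RPKM in OX40-knockout 2 and wild-type 2 (250 and 286 reads), against 0.183 and 0.408 RPKM in OX40-knockout 1 and wild-type 1 (6 and 14 reads). Klrb1c, encoding NK1.1, was at 159 RPKM in OX40-knockout 2 and 159.7 RPKM in wild-type 2, against 42.8 and 98.5 RPKM in OX40-knockout 1 and wild-type 1. The part of NK cells in the split of the Ly49 genes was not tested.

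Other cell types were read at low levels or without that split. The αβ T cell list summed to 2346 and 2252 RPKM in the OX40-knockout and 2527 and 2206 RPKM in wild-type libraries, with 6 of its 9 genes lower in both replicate 2 libraries, beside 18.7% of all genes. γδ T cell genes summed to between 404 and 422 RPKM, from the Tcrg constant segments, and Trdc was not analysed here. The CD4 and CD8 list summed to 78.4 and 43.4 RPKM in the OX40-knockout and 43.4 and 46.2 RPKM in wild-type libraries. B cell and plasma cell markers summed to at most 4.85 RPKM, with Ms4a1 and Pax5 at 0. Dendritic and myeloid markers summed to 7.97 and 10.1 RPKM in OX40-knockout 2 and wild-type 2, against 4.03 and 4.71 RPKM in OX40-knockout 1 and wild-type 1, with Siglech at 0. Of the genes tested from these 5 lists and the NK list, 0 passed between genotypes.

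**Figure D4:**
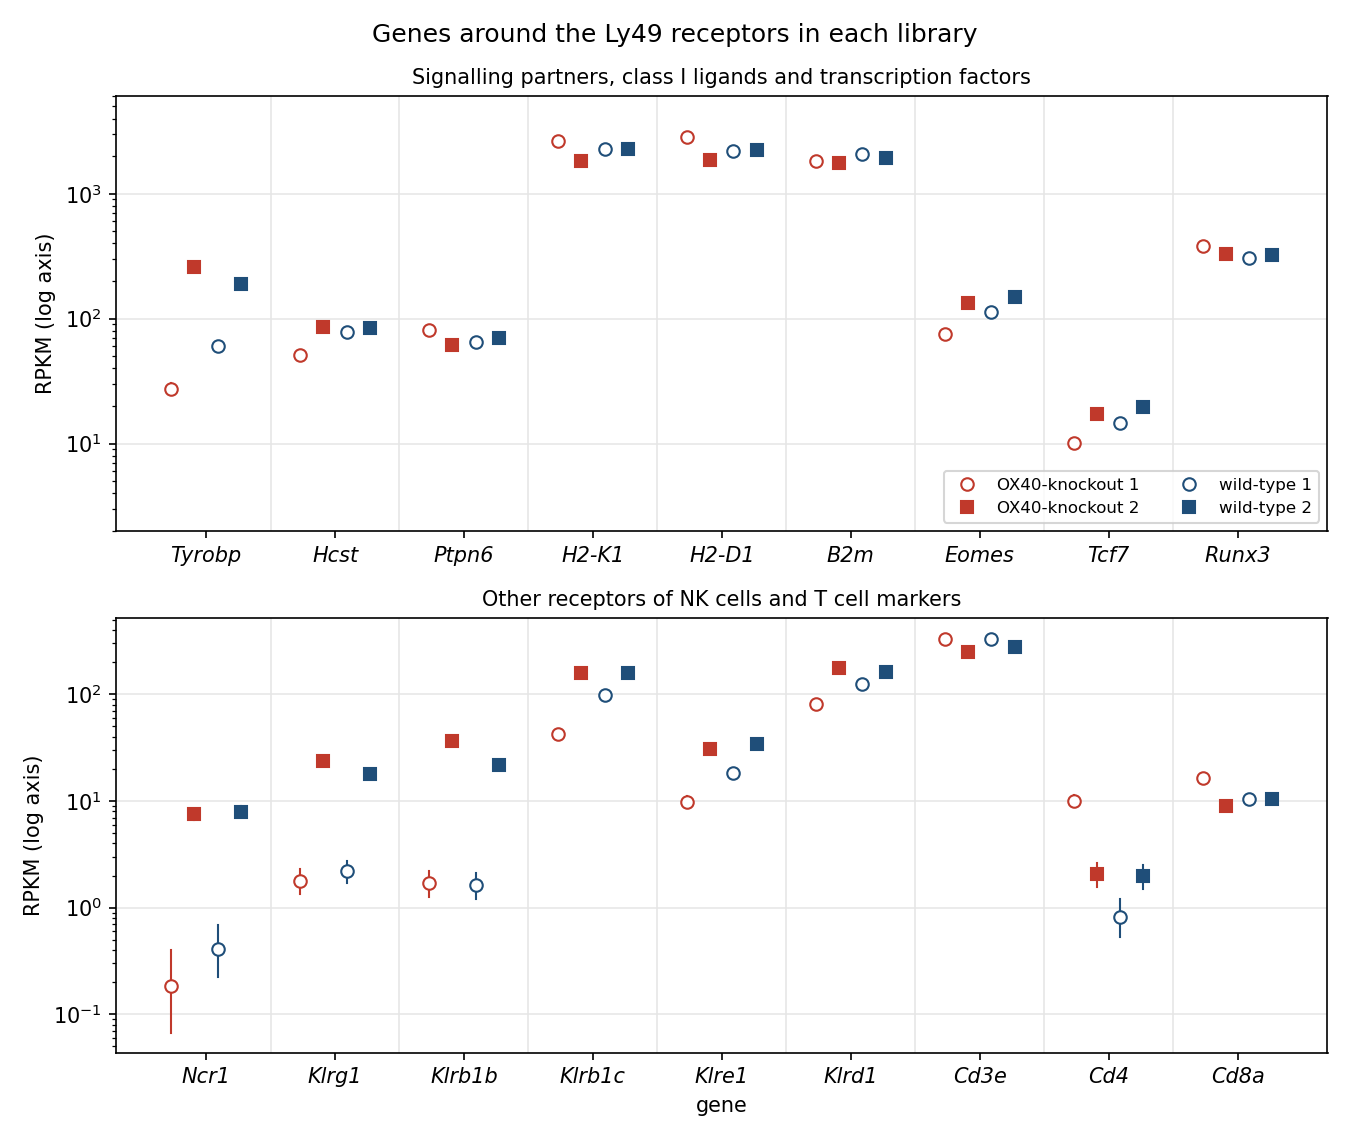
RPKM by library, on log axes, of signalling partners, class I ligands and transcription factors (upper panel) and of other NK receptors and T cell markers (lower panel), with exact 95% Poisson intervals of the reads. Tyrobp, Ncr1, Klrg1 and Klrb1b are far higher in OX40-knockout 2 and wild-type 2 than in OX40-knockout 1 and wild-type 1, and H2-K1, H2-D1 and B2m stay between 1768 and 2844 RPKM.

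The summed Ly49 level was 124 and 268 RPKM in OX40-knockout 1 and 2 and 183 and 285 RPKM in wild-type 1 and 2. Among 8871 other named genes averaging 5 RPKM or more, those whose log2(RPKM + 1) profile lay nearest to it, by Euclidean distance over 4 libraries, included Gcnt1, Irf8, Gm10226 and Klhl30, at distances of 0.087 to 0.164. Gcnt1 encodes an enzyme that branches O-glycans and Irf8 an interferon regulatory factor. Irf8 was at 246 and 551 RPKM in the OX40-knockout and 351 and 528 RPKM in wild-type libraries. With 4 libraries many genes can share such a profile, and the sum is mostly that of Klra7, Klra5 and Klra1.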

How the data were processed

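Total RNA of 4 libraries, 2 OX40-knockout and 2 wild-type, was prepared with an Illumina TruSeq RNA kit, per the labels' protocols. Bowtie 0.12.2 and the build mm8 are named in the submitters' processing notes. Not given in the sources used here are the annotation, the counting tool, whether strand was used, and how reads with several matching genes were treated. The authors deposited RPKM values of 35275 Ensembl gene IDs, in a table whose header names no unit. The unit follows from the numbers: in genes with 1 transcript they are those of whole reads at the annotated length and 1 library total, for 83.8% of 5603 genes within 0.02 read. Reads of listed genes were recovered with these totals at the length, near the mean annotated one, that gave whole reads in all 4 libraries within 0.002, which leaves a common factor between libraries unsettled. Symbols and transcript sequences came from GENCODE vM21 (GRCm38), which names 34490 of the IDs, and promoters from RefSeq. All 8 Ly49 genes, with 10 promoter windows, were matched by symbol.

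log2(RPKM + 1) was tested with limma 3.58.1 in R 4.3.3 (genotype only, all 4 libraries, trend in the empirical Bayes step) over genes averaging 1 RPKM or more, adjusted by the Benjamini-Hochberg method with a threshold of 0.05. Fold changes on that scale understate the change of low genes. The fit was tested on simulated data with independent libraries and a smaller spread than the Ly49 genes had. How well it detects changes in the Ly49 genes was not tested. An alternative set of pseudocount, filter, scaling, replicate block, GC correction and left-out libraries was run. Genes of the lists were named as listed, and the 5 genes of nearest profile by distance, of which 1 is not reported here. Members and lists were chosen with earlier results of these data known. Python 3.11.15, pandas 2.3.3, Biopython 1.88 and matplotlib 3.10.9 were used.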

Additional observations from a re-analysis of the deposited data

How the results depend on the processing

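No Ly49 gene was called between genotypes under any alternative run. Over all genes, limma called 1 gene with quantile normalization, 5 with the replicate block and 1 with the GC correction and the replicate block, against 0 otherwise, and between 0 and 1 with a library left out. The numbers in the titles are not said to pair libraries; deviations of same-numbered libraries from their group means correlated at 0.469 over genes. With the replicate block Klra6 and Klra7 had the lowest unadjusted limma p of the family (0.0045 and 0.0156; lowest adjusted p of the 8 genes 0.839), and with the GC correction too 0.0068 and 0.0163. The GC correction was added after seeing the data. In 7 settings that keep all libraries, all 56 log2 changes of members kept their direction. With a library left out, 11 of 32 turned round: the log2 change lay between -0.97 and 0.32 for Klra1, -0.88 and 0.46 for Klra3, -1.60 and 1.09 for Klra4, -0.40 and 0.63 for Klra5, -1.75 and 1.32 for Klra8, and -0.93 and 1.23 for Klra9. Klra6 and Klra7 stayed below 0 throughout. Such fits leave 1 library in a group, which is assumed to vary like the others. With 2 libraries a group, and standard errors above 1 for Klra4 and Klra8, changes of a few fold in these genes were not detectable.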
